A study of Mus musculus with 3 samples.

Results

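Msx1, Msx2, Lhx2, Sox9, Sox21, Cux1, Tbx1, Nfatc1 and Vdr encode 9 transcription factors of the hair follicle, and their loci are described here in chromatin of mouse keratinocytes. The genes were taken by name, 9 of the 21900 protein-coding genes of the annotation. Each gene's peaks are those with any base over its mm10 span or within 50 kb on either side. This gave 45 of the 18087 deposited DLX3 peaks and 31 of the 16735 deposited H3K4me3 peaks. Chromatin immunoprecipitation and sequencing was done on suprabasal keratinocytes, the epidermal cells that have left the basal layer to differentiate, of wild type BALB/c mice. The libraries were 1 for DLX3, a homeodomain transcription factor, and 1 for H3K4me3, the trimethylated histone mark of active promoters. A nonspecific IgG library was not analysed here, so signal that active promoters can give in any immunoprecipitation was not tested. The sample labels call the mice adult, whereas the series text speaks of newborn epidermis.

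Hair follicles form where the epidermis grows down into the dermis, and factors of several DNA-binding families set the fate of their layers. MSX1 and MSX2 are homeodomain repressors of tooth and hair, and MSX2 acts in the matrix, the dividing cells that build the hair. LHX2, SOX9, TBX1 and NFATC1 are known from the bulge, the stem cell niche of the follicle, SOX21 from the cuticle of the hair shaft, and CUX1 from the inner root sheath that moulds it. VDR, the vitamin D receptor, is needed in keratinocytes for hair cycling in mice. DLX3 is itself needed for hair formation in mice, and DLX and MSX homeodomains are related and bind similar sites with a TAAT core.

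RefSeq promoter sequences (GRCm38.p6, the assembly of mm10), 250 bases before to 50 after an annotated start, were matched for 7 of the 9 genes, Sox9 and Nfatc1 being without an entry. They comprise 9 promoters, since Lhx2 and Tbx1 have a pair each. All 9 lay under an H3K4me3 peak, against 58.5% of the 21263 promoters of coding genes. A DLX3 peak covered 3 of the 9, those of Msx2 and Sox21 and the inner promoter of Lhx2, against 24.5% of all these promoters and 41.4% of those under H3K4me3. These 3 are shown with that of Msx1, the relative of Msx2 whose promoter had H3K4me3 and no DLX3 peak. Capitals mark matches to TAATTA, the homeodomain core, and to GGGCGG, the GC box, read on either strand. TAATTG, another homeodomain core, and TGANTCA, the AP-1 site, were also searched and are in none of the 9 promoters. They are uncommon in all promoters of coding genes (6.83% and 6.99%) and in those under H3K4me3 (4.19% and 4.33%). Absence from 9 promoters therefore does not set these genes apart.
Msx2, chr13:53472731-53473030, minus strand: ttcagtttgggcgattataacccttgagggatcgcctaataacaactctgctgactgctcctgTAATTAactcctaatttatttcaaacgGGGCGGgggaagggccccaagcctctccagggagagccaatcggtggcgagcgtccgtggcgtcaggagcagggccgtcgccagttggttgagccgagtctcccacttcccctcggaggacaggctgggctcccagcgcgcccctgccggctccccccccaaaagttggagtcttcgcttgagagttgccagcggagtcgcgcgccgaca
Lhx2, inner promoter, chr2:38351058-38351357, plus strand: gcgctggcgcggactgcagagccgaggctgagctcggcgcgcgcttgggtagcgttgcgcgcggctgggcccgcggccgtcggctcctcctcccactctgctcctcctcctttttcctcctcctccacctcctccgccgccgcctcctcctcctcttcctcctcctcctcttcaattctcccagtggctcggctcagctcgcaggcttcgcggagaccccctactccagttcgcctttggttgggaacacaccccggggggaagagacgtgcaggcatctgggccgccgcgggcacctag
Sox21, chr14:118236981-118237280, minus strand: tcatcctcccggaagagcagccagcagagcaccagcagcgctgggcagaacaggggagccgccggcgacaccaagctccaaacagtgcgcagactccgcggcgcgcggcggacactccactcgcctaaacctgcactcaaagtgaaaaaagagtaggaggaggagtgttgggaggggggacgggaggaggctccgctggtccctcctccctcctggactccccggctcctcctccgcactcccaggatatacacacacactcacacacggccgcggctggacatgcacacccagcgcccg
Msx1, chr5:37824536-37824835, minus strand: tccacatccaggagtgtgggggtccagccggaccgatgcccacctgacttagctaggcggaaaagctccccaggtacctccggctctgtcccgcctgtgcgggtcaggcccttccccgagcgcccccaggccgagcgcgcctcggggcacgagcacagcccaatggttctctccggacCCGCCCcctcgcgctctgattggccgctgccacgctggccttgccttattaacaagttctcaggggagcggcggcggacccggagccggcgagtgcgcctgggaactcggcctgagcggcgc

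The Msx2 promoter was the 1 promoter of the 9 with TAATTA. Its match begins 187 bases before the start and lies inside the DLX3 peak, with a GC box at 160 bases. TAATTA occurs in 4.53% of all promoters of coding genes, in 1.88% of those under both H3K4me3 and DLX3, and in 2.39% of those under H3K4me3 alone. The motif is thus uncommon in each of these sets. Promoters met by DLX3 had a median GC content of 63.7%, those not met by it 53.7%, and those with H3K4me3 and no DLX3 61.3%. GGGCGG was in 5 of the 9 promoters, namely those of Msx1, Msx2 and Vdr and 1 each of Lhx2 and Tbx1, against 46.2% of all and 69.1% of those under H3K4me3. A match in these letters is a description of the sequence and does not show a bound site.

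H3K4me3 lay within 1 kb of a span end in all 9 genes, against 59.3% of coding genes, and in the wider window 76.9% of coding genes had it. At least 1 DLX3 peak lay in the wider window of all 9, against 63.8% of coding genes. Among the 12988 coding genes with H3K4me3 at an end, 83.2% had a DLX3 peak in such a window. A window of 50 kb is thus met in most marked genes. In bulk chromatin, binding or a mark in few cells and a weaker one in many cells cannot be told apart. At 8 of the 9 genes, all but Sox9, 3 or more DLX3 peaks lay in the window, against 30.4% of coding genes and 42.3% of marked ones. Close to the gene the share was lower, since 4 of the 9, Msx2, Sox21, Cux1 and Nfatc1, had a DLX3 peak within 1 kb of an end, against 27.6% of coding genes and 45.4% of marked ones. With 1 library for each antibody there is no replicate spread and no test between groups, and these shares are descriptions.

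**Figure D1:**
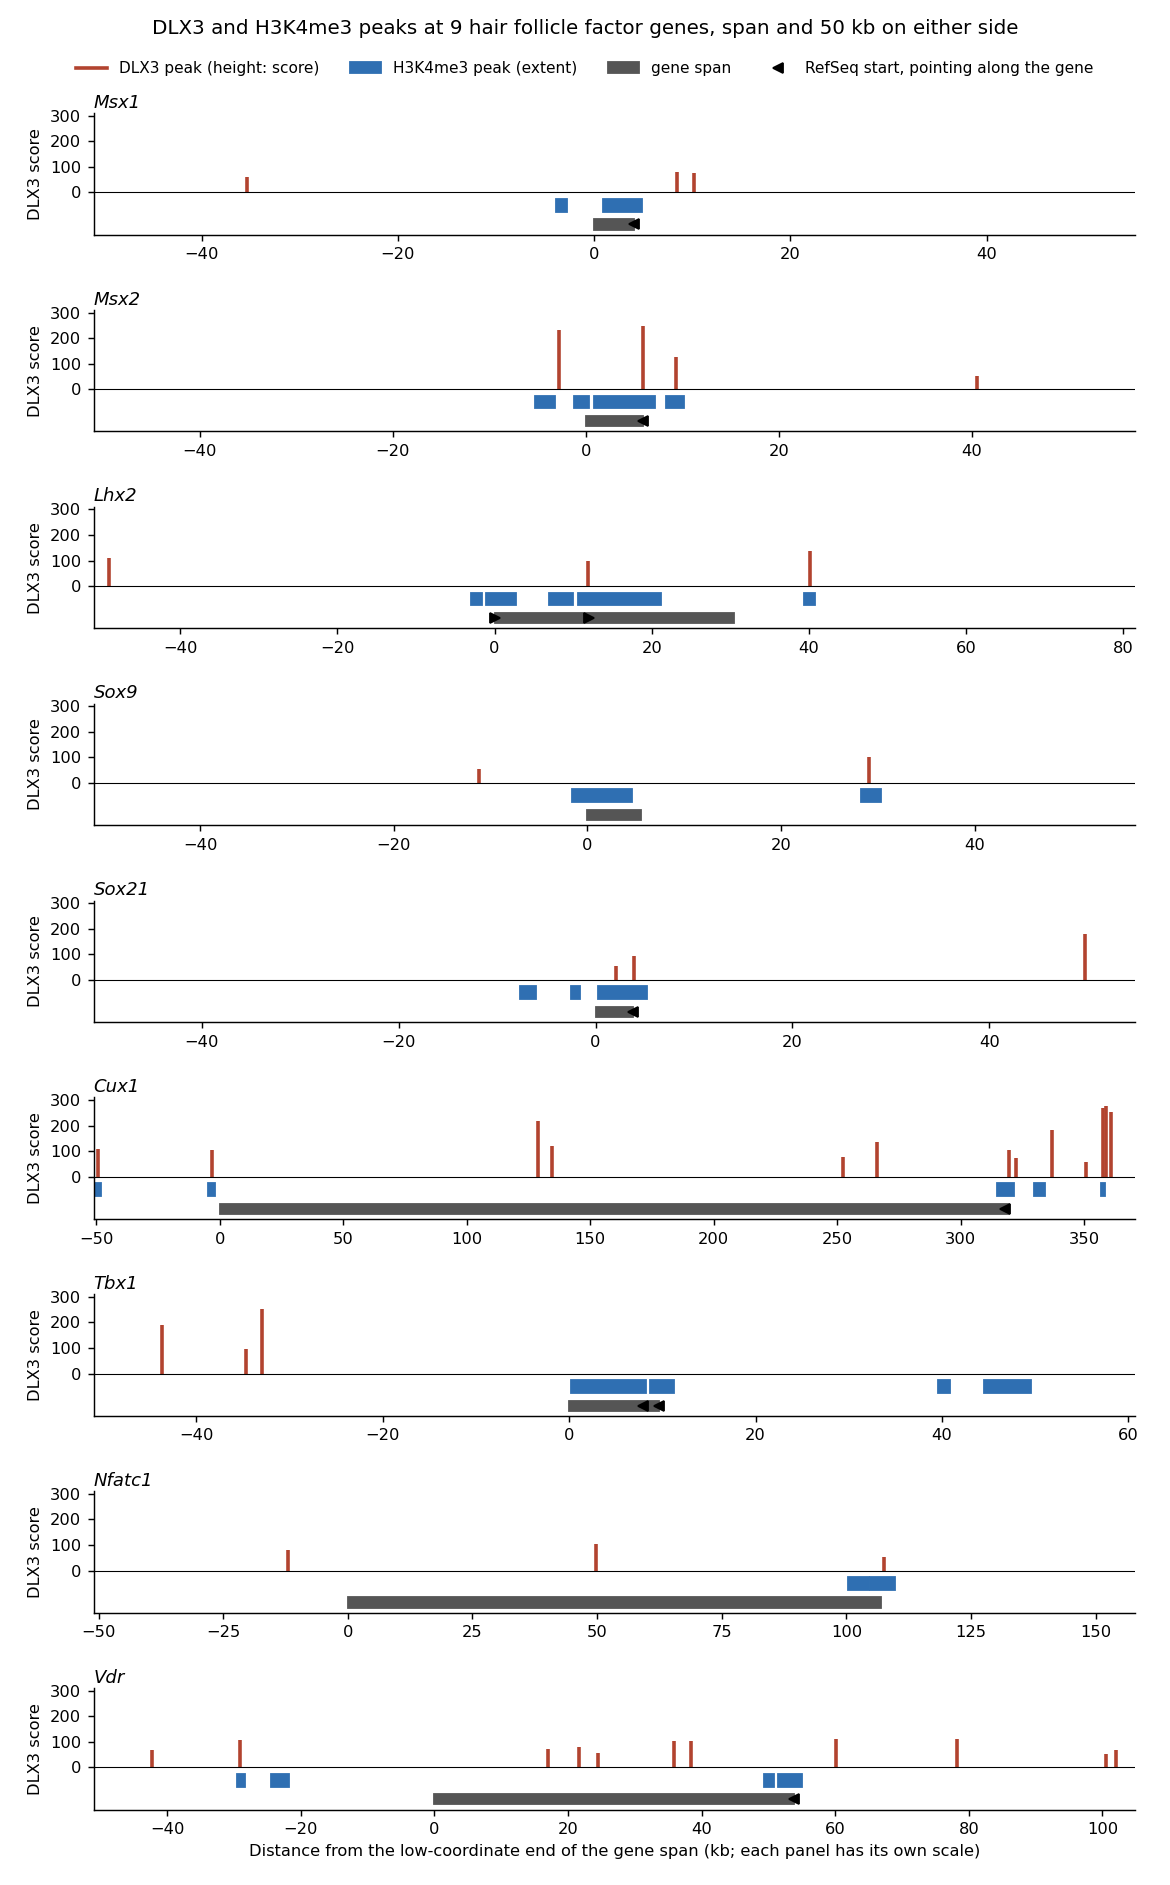
Positions of DLX3 peaks (red lines, height giving the deposited score) and H3K4me3 peaks (blue) at the 9 genes (grey, with arrowheads at RefSeq starts), in kb from the low-coordinate end of each span, including 50 kb on either side. H3K4me3 lies over one end or most of every gene, and DLX3 lies at that place in Msx2, Lhx2, Sox21, Cux1 and Nfatc1 and only away from it in Msx1, Sox9, Tbx1 and Vdr.

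Of the homeodomain genes, Msx2 (chr13:53466881-53472780) had DLX3 over its start and on both sides of the gene. The start peak (chr13:53472420-53473277) had a score of 246.15, higher than 95.3% of the DLX3 list, and was centred 68 bp upstream of the start. The score is the authors' value per peak. From its range it was taken to be the MACS score, a scaled negative logarithm of the p-value, which no header states, and it is used only to rank peaks within a list. The next peak (chr13:53463260-53464924) had a score of 231.33 and lay 2789 bp beyond the low end, on the downstream side of the gene. It was 1665 bp wide, wider than 99.4% of DLX3 peaks. Farther upstream were a peak of score 125.72, centred 3401 bp from the start, and a peak of score 50.8 at 34634 bp. Msx2 therefore held 3 peaks above the upper quartile of the DLX3 list, 125.01, and 1 near its lower limit. Each of the 3 touched an H3K4me3 peak, the start peak and the upstream peak with their whole length and the peak past the gene with 382 bp, 22.9% of it. Gm33763, an annotated long noncoding RNA gene, spans the whole of this group, so these peaks cannot be given to Msx2 alone.

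Msx1 (chr5:37820491-37824585), its relative, had an H3K4me3 peak of 4009 bp over the start (score 1459.8), and the nearest DLX3 peak was 4304 bp upstream. Its 3 DLX3 peaks scored 79.37, 76.22 and 59.78, all below the median of the list, 83.35. The first pair, 4304 and 6117 bp upstream, lay in the noncoding gene Gm33993, and the remaining peak lay 35394 bp beyond the other end. None of the 3 met H3K4me3. Both Msx genes are short and marked over most of their length, 92.0% of the span of Msx2 and 78.9% of that of Msx1. The highest DLX3 score at Msx2 was above that of 91.6% of coding genes and at Msx1 above that of 49.5%, counting genes without a peak as 0. Among coding genes with H3K4me3 at an end these shares were 88.4% for Msx2 and 32.6% for Msx1.

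Lhx2 (chr2:38339271-38369737) has 2 annotated starts in this set, and DLX3 lay over the inner one. The peak there (chr2:38350817-38351435, score 97.34) was centred 182 bp upstream of the inner start and was wholly inside an H3K4me3 peak of 10549 bp. That H3K4me3 peak (chr2:38349900-38360448) ranked 21 by width and 131 by score among the 16735 of its list. The outer start had H3K4me3 (3823 bp, score 1378.82), with no DLX3 peak within 11487 bp of its promoter. The highest-scoring DLX3 peak of the window (chr2:38379028-38379856, score 139.19) lay 9705 bp beyond the far end of the gene, inside a small H3K4me3 peak of score 89.93. The remaining peak (110.05) was nearer to Dennd1a, which encodes a DENN domain protein of endocytosis. Like Msx2, Lhx2 thus had DLX3 over a RefSeq start and also beyond the gene. It differed in that this start was the inner one, with no DLX3 peak at an end of the span.

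Cux1 (chr5:136248135-136567590), the longest of the 9 at 319 kb, had the most DLX3 peaks, 13, more than 99.6% of coding genes. Per 100 kb of window it had 3.1, above 84.0% of coding genes and 77.4% of marked ones, so much of the count goes with the length of its window. Upstream of the gene 3 peaks lay within 4401 bp, among them the 2 highest scores of the 9 windows, the other being tied with a peak in the Tbx1 window. They were chr5:136605015-136606104 (266.88), chr5:136606344-136607183 (278.47) and chr5:136608624-136609415 (254.24), centred 37969 to 41429 bp beyond the upstream end of the span. Cux1 is the nearest coding gene to all 3, and no annotated gene covers them. A small H3K4me3 peak (1459 bp, score 83.69) held the first and shared 43 bp with the next, and the peak farthest from the gene had none.

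The whole DLX3 list holds 363 runs of 3 consecutive peaks within 5 kb, which take in 4.94% of its peaks. In 42 of them every peak scores 100 or more, in 7 every peak scores 150 or more, and in 3 every peak scores 200 or more. The Cux1 run was the 1 run with every score at 250 or above, a limit chosen after its values were seen. No other gene of the 9 had a run.

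Within Cux1, 4 DLX3 peaks lay far inside the gene without H3K4me3, the highest (chr5:136376746-136377540) at 216.91 and the others at 136.24, 121.93 and 78.21. The peak at the upstream end (chr5:136567058-136567958, score 104.96) lay inside an H3K4me3 peak of 7124 bp of score 3100. Rank 142 of that list is shared by every peak tied at 3100, and 94.6% of the list scores lower. The DLX3 peak did not reach the RefSeq promoter, which lies 827 bp away. A further H3K4me3 peak of 4540 bp (score 799.92), 12462 bp beyond that end, had no DLX3. Upstream of the gene 3 more DLX3 peaks had no H3K4me3, with scores of 183.32, 74.73 and 58.65. At the opposite side of the window 2 DLX3 peaks (109.28 and 106.42), each in an H3K4me3 peak, were over Prkrip1 and over Sh2b2, a signalling adaptor gene.

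**Figure D2:**
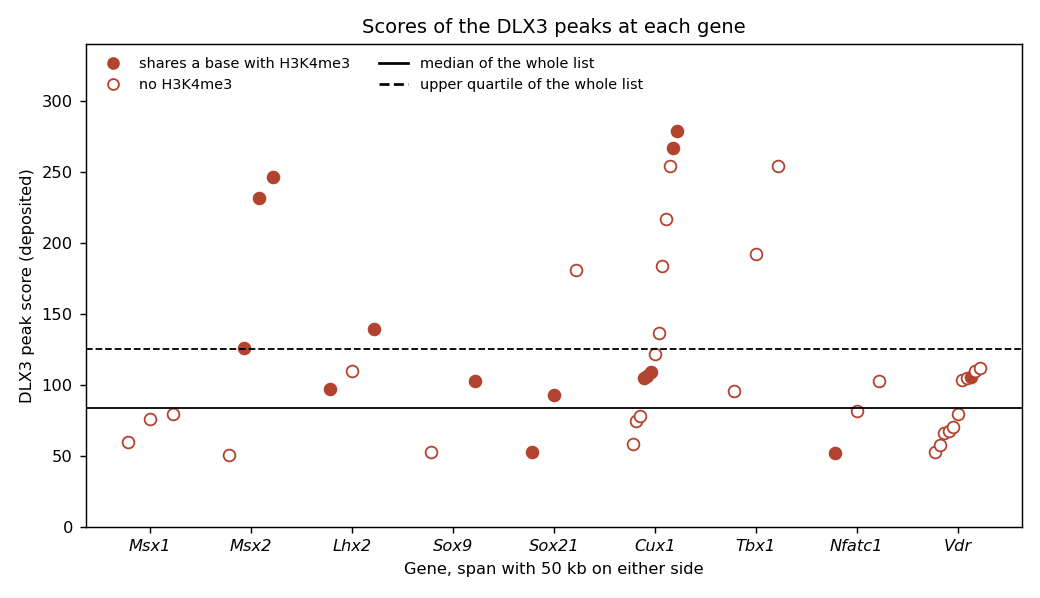
Deposited scores of the 45 DLX3 peaks by gene, filled where the peak shares at least 1 base with H3K4me3, with the median (83.35) and upper quartile (125.01) of all 18087 peaks as lines. Scores above 200 stand at Msx2, Cux1 and Tbx1, and all 3 peaks of Msx1 are below the median.

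The HMG-box genes Sox9 and Sox21 differed in where DLX3 lay. Sox21 (chr14:118233233-118237030) had a DLX3 peak over its start (chr14:118236659-118237601, score 92.53), centred 100 bp upstream, and another inside the gene (chr14:118235027-118235526, score 52.54). Both were wholly inside 1 H3K4me3 peak of 5005 bp (score 2698.54), which covered 93.5% of the gene. The start peak overlaps Gm4675, a noncoding gene, as well. The highest-scoring DLX3 peak of the window (180.74) lay 45938 bp upstream of Sox21, without H3K4me3, and was nearer to the coding gene Gm9376.

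Sox9 (chr11:112782210-112787757) had a broad H3K4me3 peak of 6188 bp and score 2713.47 over its low end and 82.7% of the gene, with no DLX3 peak in it. Its 2 DLX3 peaks, the fewest of the 9, were centred 11184 bp outside the low end (score 52.99) and 23550 bp outside the high end (chr11:112811016-112811598, score 102.51). The high-side peak lay wholly in a separate H3K4me3 peak of 2050 bp (score 167.3). That H3K4me3 peak overlaps an end of Gm30562, a noncoding gene, while the DLX3 peak itself meets no annotated gene. No other coding gene reaches into the Sox9 window.

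Tbx1 (chr16:18580979-18590671) had broad H3K4me3 and no DLX3 peak nearest to it. The H3K4me3 peak of 8050 bp (score 1633.9) ranked 75 by width, and with a second peak of 2651 bp it covered 93.9% of the gene and both RefSeq promoters. The 3 DLX3 peaks of the window scored 254.24 (chr16:18547626-18548412), 191.97 and 95.96. All 3 lay inside Gnb1l, a neighbouring gene of a WD-repeat protein, at 32960 to 43619 bp from Tbx1, and none met H3K4me3. They count for Tbx1 only through the 50 kb window.

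Nfatc1 (chr18:80606205-80713071), the gene of a calcineurin-dependent factor, had DLX3 scores on either side of the list median, 83.35. A peak of score 51.88 was centred 688 bp outside the high end of the gene, under H3K4me3 that was 5098 bp wide (score 1728.75). A peak of score 102.51 lay 49684 bp inside the gene, and 1 of score 81.5 lay 11962 bp outside the low end, both without H3K4me3. A second H3K4me3 peak of 4308 bp (score 1833.53) lay inside the gene, next to the first, and had no DLX3. Its 1.45 DLX3 peaks per 100 kb were the lowest of the 9, above those of 61.2% of coding genes and of 47.0% of those with H3K4me3 at an end.

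Vdr (chr15:97854427-97908296) had the densest DLX3 and none at its start. Its window held 11 DLX3 peaks, 7.15 per 100 kb, above 98.0% of all coding genes and 97.1% of those with H3K4me3 at an end. Their scores ran from 52.84 to 112.08 with a median of 79.48, near the median of the list, 83.35. The peaks were thus many, and none reached the upper quartile of the list, 125.01. Inside the gene 5 peaks stood 15514 to 36779 bp downstream of the start, with scores of 104.91, 103.18, 79.48, 70 and 57.36. Upstream, peaks of 109.4 and 112.08 were centred 6312 and 24346 bp from the start. None of these 7 met H3K4me3, although a peak of 3576 bp (score 1853.69) covered the start. The other 4 were nearer to other coding genes, 2 inside Hdac7, a histone deacetylase gene, and 2 near Tmem106c, a membrane protein gene. The 1 DLX3 peak of the window with H3K4me3 (105.22) was in Hdac7.

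Over the 9 windows together, 15 of the 45 DLX3 peaks touched H3K4me3 by at least 1 base, a share of 33.3% with a 95% Wilson interval of 21.4 to 47.9%. Among the other 18042 DLX3 peaks 7600 did (42.1%, 41.4 to 42.8), a share inside the first interval. These intervals cover counting error only and treat the peaks as independent. The peaks are grouped by window, Cux1 and Vdr giving 13 and 11 of the 45, with 5 and 1 of them on H3K4me3. The 4 peaks within 1 kb of a gene end all lay on H3K4me3, and 11 of the 41 others did. This is usual at gene ends. Of the 6034 coding genes with DLX3 within 1 kb of an end, 5903 also had H3K4me3 within 1 kb of an end. Only 13 of the 45 were centred inside a gene of the 9, 11 were outside but within 10 kb, and 21 were farther out. The DLX3 peaks on H3K4me3 had a median score of 106.42 (51.88 to 278.47) and those without it 88.73 (50.8 to 254.24), so their ranges overlapped almost fully. All 45 had a median score of 103.18 and a median width of 716 bp, and the other 18042 had 83.31 and 627 bp. For 34 of the 45 the gene of the 9 was the nearest coding gene, and 11 were nearer to another. At the window's edge the farthest DLX3 peaks counted were those by Prkrip1 (109.28, 48.8 kb from Cux1) and Dennd1a (110.05, 48.7 kb from Lhx2). The nearest not counted was a peak of score 60.71 lying 50.1 kb from Msx2.

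H3K4me3 at these genes was broad. The widest peak within 1 kb of an end of each gene had a median width of 5098 bp over the 9 genes, from 3576 bp at Vdr to 8050 bp at Tbx1. Over all 12988 marked coding genes the median was 2400 bp. At 6 of the 9, Msx2, Sox9, Sox21, Cux1, Tbx1 and Nfatc1, this peak was 5 kb or wider, against 4.25% of marked coding genes. The 3 others, Msx1, Lhx2 and Vdr, had 4009, 3823 and 3576 bp, wider than in 89.4%, 87.5% and 83.9% of marked genes. For Lhx2 the peak of 10549 bp over the inner start is not in this measure. The scores stood out less than the widths, since the highest at a gene end ranged from 1378.82 at Lhx2 to 3100 at Cux1, above 53.8% to 91.9% of marked genes. Of the 6 broad peaks, those at Msx2, Sox21, Cux1 and Nfatc1 held a DLX3 peak and those at Sox9 and Tbx1 held none. Among all H3K4me3 peaks, of any width, 40.7% met a DLX3 peak. The share among broad peaks alone was not counted, so the 6 cannot be set against it.

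**Figure D3:**
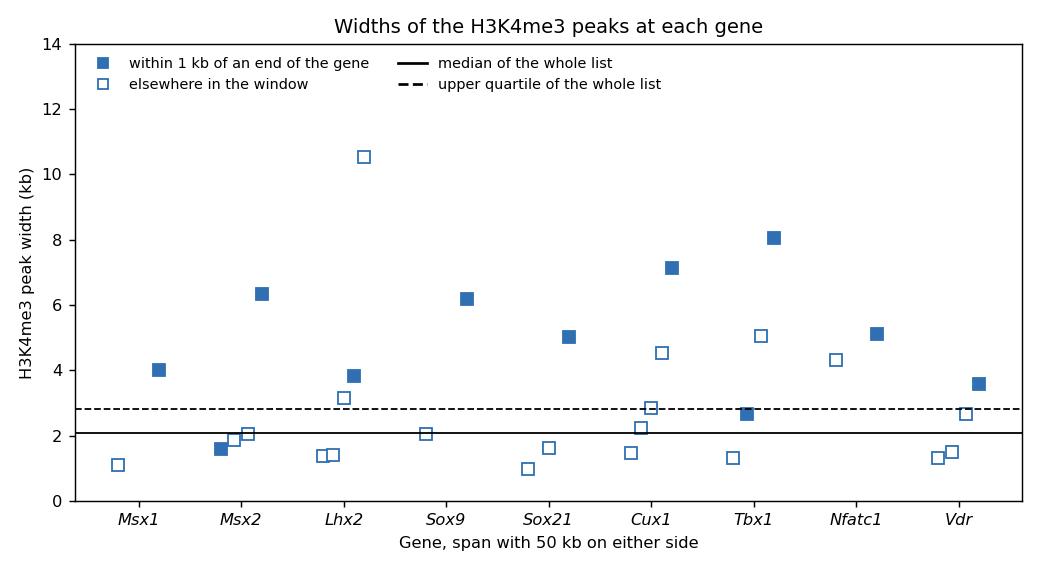
Widths in kb of the 31 H3K4me3 peaks by gene, filled where the peak is within 1 kb of an end of the gene, with the median (2080 bp) and upper quartile (2801 bp) of all 16735 peaks as lines. Every gene has a filled point above the upper quartile, and the widest peak, at the inner start of Lhx2, is 10549 bp.

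The other genes of the follicle programme were taken from a list of 24 further hair follicle transcription factors. All 24 had a DLX3 peak in the same window (background 63.8%) and 13 had one within 1 kb of an end (27.6%). Among coding genes with H3K4me3 at an end, which most of the 24 had, these backgrounds were higher, 83.2% and 45.4%. Neighbours in the list can count the same peak. Dlx1 and Dlx2 share their highest-scoring peak, as do Hoxc12 and Hoxc13. H3K4me3 was at an end of 22 of the 24 (59.3%), all but Hoxc12 and Runx1, and in 14 of these 22 it was 5 kb or wider (4.25%). Hoxc12 and Runx1 had 6 and 4 H3K4me3 peaks elsewhere in their windows. The highest DLX3 scores were at Ovol1 (497.39), a zinc finger repressor gene of epithelial differentiation, Zfp750 (415.45), a differentiation regulator gene, Hr (331.14), which encodes the corepressor hairless, a partner of VDR, and Gata3 (270.46), a factor of the inner root sheath. The Ovol1 peak was nearer to Ap5b1, and the Hr peak was centred 266 bp inside an end of Hr. The Gata3 peak lay 29.3 kb outside the span without H3K4me3, and Gata3 had no DLX3 peak within 1 kb of an end. The median density was 2.88 DLX3 peaks per 100 kb for the 9 genes and 3.76 for these 24, against 1.58 for marked coding genes and 0.89 for all coding genes.

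Close relatives of the 9, from the same gene families, formed a list of 37. A DLX3 peak lay in the window of 21 of them (background 63.8%, and 83.2% of marked genes). Within 1 kb of an end it was at 4 (27.6%, and 45.4% of marked genes). H3K4me3 was at an end of 25 (59.3%), and in 4 of the 25 it was 5 kb or wider (4.25%). Their median was 0.926 DLX3 peaks per 100 kb. Msx3, the remaining Msx gene, had H3K4me3 at an end and no DLX3 peak, and Cux2 had 5 DLX3 peaks with a highest score of 156.87, inside the gene. The 4 highest scores of the list were at Rara (412.99), Tbx19 (342.14), Thra (294.05) and Rxra (291.69), of which Rara, Thra and Rxra encode nuclear receptors. The peak counted for Rara was nearest to Cdc6, a replication licensing gene, that for Tbx19 to Sft2d2 and that for Thra to Casc3. That for Rxra, the gene of the receptor that pairs with VDR, lay inside Rxra without H3K4me3. Neither list was tested against the 9.

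**Figure D4:**
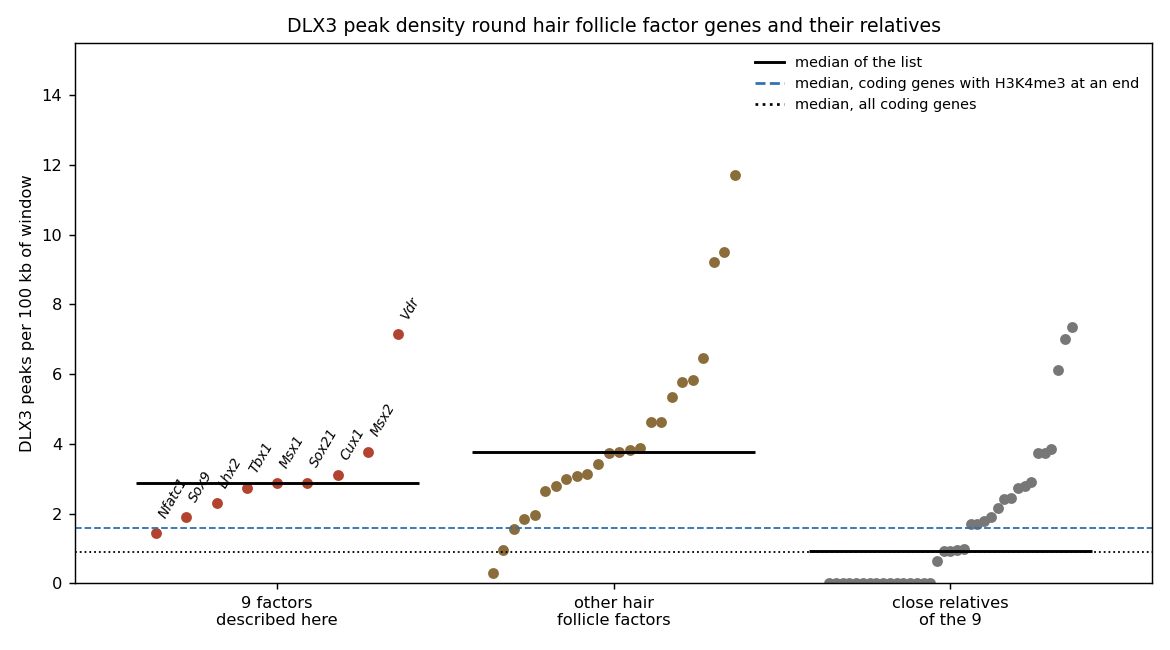
DLX3 peaks per 100 kb of window for the 9 genes, 24 other hair follicle factor genes and 37 close relatives, 1 point a gene, ordered within each list, with the median of each list as a black bar. The 9 genes run from 1.45 at Nfatc1 to 7.15 at Vdr with a median of 2.88, the other factors have a median of 3.76 and the relatives 0.926.

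The labelled cell type was set against marker genes by H3K4me3 within 1 kb of an end, which 59.3% of all coding genes had. Marked were 9 of 10 suprabasal keratinocyte genes, all but Flg, 5 of 6 basal keratinocyte genes, all but Trp63, and 8 of 10 genes of hair follicle epithelium, all but Cd34 and Krt31. Peaks farther than 1 kb from an end, inside the gene or outside it, are not in this measure. Trp63, Cd34 and Krt31 each had 1 such H3K4me3 peak in the 50 kb window, and Flg had 0. Of 10 dermal papilla and fibroblast genes 8 were marked, including Col1a1 and Pdgfra and not Col3a1 or Lum. Markers of the remaining cell types were mostly unmarked, with 2 of 6 melanocyte genes, 1 of 6 immune genes and 1 of 5 endothelial genes carrying the mark. A DLX3 peak was within 1 kb of an end of 5 of the 10 suprabasal, 3 of the 6 basal, 2 of the 10 follicle and 0 of the 10 dermal genes. For melanocyte, immune and endothelial genes this was 1 of 6, 1 of 6 and 0 of 5. The background was 27.6% of coding genes and 45.4% of marked ones. In the window of 50 kb DLX3 was at 9, 6, 8 and 4 of the first 4 lists, in the same order. It was at 4 of 6 melanocyte, 5 of 6 immune and 3 of 5 endothelial genes, against 63.8% of coding genes and 83.2% of marked ones. Follicle and dermal genes thus carried the mark, DLX3 was at no end of the dermal genes, and the part that follicle or dermal cells have in the H3K4me3 and DLX3 of the 9 genes was not tested.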

How the data were processed

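Peak lists were deposited for the DLX3 and H3K4me3 libraries, 1 list each, on mm10. Per the submitters' processing notes, Bowtie 1.1.2, MACS 1.4.2 and HOMER were used. Their roles and settings, and whether IgG served as control, were not given in the sources used here. Each peak's deposited score was used as the authors gave it, within its list only. Depth is unknown.

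Positions count from 1. Gene spans came from RefSeq GRCm38.p6, the assembly of mm10, and strands and promoters from its promoter table. No genome sequence was used, so motifs were searched in promoters alone, and exons and introns were not separated. Overlap required at least 1 bp. The nearest coding gene was taken by distance of the peak centre to a span, then to an end. The shares of DLX3 peaks on H3K4me3 carry 95% Wilson intervals. The 9 genes and all lists were chosen with earlier results of these data known. Besides the 9, the text names the 4 genes of each list with the highest DLX3 scores and the coding genes nearest to peaks. Msx3, Cux2, Hoxc12, Hoxc13, Dlx1, Dlx2, Runx1 and the markers were chosen for naming after their values were seen. Python 3.11.15, pandas 2.3.3 and SciPy 1.17.1 were used, and interval counting was tested on simulated data.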

Additional observations from a re-analysis of the deposited data

How the results depend on the processing

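All 9 genes kept H3K4me3 in every window tried, and 6 had it among the top 20% of peaks by score. Tbx1 was among these 6 only through a peak over Septin5, a neighbouring coding gene (score 2792.38, centred 37.4 kb from Tbx1). The number with a DLX3 peak was 6 within the spans alone, 7 with 5 kb on either side, 8 with 20 kb and 9 with 100 kb. With only the top 20% of DLX3 peaks it was 4, namely Msx2, Cux1, Sox21 and Tbx1. The peaks counted there for Sox21 and Tbx1 were nearer to Gm9376 and Gnb1l. When a peak counted only for its nearest coding gene the number of genes with DLX3 was 8, Tbx1 having none.

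The 45 DLX3 peaks became 15, 21, 27 and 74 with the spans alone and with 5, 20 and 100 kb. They became 28 with peaks from the median score upwards and 10 in the top 20%. The 15 on H3K4me3 became 5, 9 and 24 with the spans alone and with 5 and 100 kb, and 6 and 1 with the 2 score limits, which restrict both lists at once. Requiring the DLX3 centre, or at least 50% of its length, inside H3K4me3 gave 13 by either definition. The 31 H3K4me3 peaks became 15 with the spans alone, 15 with peaks from the median score upwards and 6 in the top 20%. Fewer bases or peaks enter by construction.

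The highest-scoring DLX3 peak was another one in 4 genes with 5 kb on either side (Lhx2, Sox21, Cux1 and Vdr), and 2 (Sox9 and Tbx1) had none. Under the nearest-gene rule it was another one in Sox21 alone. No paired analysis was possible because each antibody has 1 library. The genes' own transcription was not measured here, a 50 kb window can hold sites of neighbouring genes, and peaks below the authors' score limit are not in these lists.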
